A study of Mus musculus with 87 samples.

Results

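The 10 chemokine genes Cxcl1, Cxcl2, Cxcl9, Cxcl10, Cxcl12, Cxcl13, Cxcl16, Ccl2, Ccl7 and Ccl9 were followed through the operated mouse liver. They were taken by symbol, as protein-coding entries, from the 37991 genes with values, and all 10 were among the 15396 genes that lay above the detection threshold of −1.5 (log2 RPKM) in at least 1 liver. RPKM is the number of reads scaled to the length of the transcript and to the size of the library, so that levels can be compared between genes. Averaged over all livers, Cxcl1 (44.2 RPKM), Cxcl12 (26.9 RPKM) and Ccl9 (21.3 RPKM) were the abundant members. The other 7 averaged between 0.120 RPKM (Cxcl2) and 1.64 RPKM (Cxcl9). Cxcl2 passed the detection threshold in 6 livers only, all taken after surgery, so its presence among the tested genes already depended on those livers.

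Chemokines are small secreted proteins that draw leukocytes along a gradient by binding G protein-coupled receptors on the responding cell. In the liver they are made by hepatocytes, Kupffer cells (the resident macrophages), endothelial cells and stellate cells. Which leukocyte comes depends on the receptor: Cxcr2 is carried by neutrophils, Ccr2 by inflammatory monocytes, Cxcr3 by activated T cells and Cxcr4 by many blood cells. Many inflammatory chemokine genes are switched on through the transcription factor NF-kB, and Cxcl9 and Cxcl10 are classical interferon targets.

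Livers came from male C57BL/6 mice, aged 12 to 14 weeks at surgery and entrained to light cycles with food given only in the dark. In partial hepatectomy (PH, samples labelled X) part of the liver was removed under isoflurane, and in sham surgery (S) the abdomen was opened under the same anesthesia and no liver was taken; both began 2 h after lights on (Zeitgeber time 2, ZT2). Livers after PH were analysed at 1 h (X1, n = 6), 4 h (X4, n = 3), 10 h (X10, n = 6), 20 h (X20, n = 6), 28 h (X28, n = 3), 36 h (X36, n = 6), 44 h (X44, n = 3), 48 h (X48, n = 5) and 72 h (X72, n = 3), and at 1 week (X1W, n = 3) and 4 weeks (X4W, n = 2). Sham livers were analysed at 1 h (S1, n = 6), 4 h (S4, n = 5), 10 h (S10, n = 3), 20 h (S20, n = 3) and 48 h (S48, n = 3). Untreated mice gave C0 (ZT2, n = 9), C4 (ZT6, n = 3) and C4W (the controls for 4 weeks, n = 2). Each library is poly(A) RNA of 1 liver from 1 mouse, so replicates are separate animals. Per the study's supplement the mice were operated in 3 periods: X28, X44, X48, S48, X72 and X1W came from the first alone, S10, S20, X4W and C4W from the second alone and C4 from the third alone. S1, S4, X1, X4, X10, X20 and X36 came from the first and the second, and C0 from all 3. Of X4 only replicates 4 to 6 have values, beside S4 replicates 1 to 5, so these groups may not be balanced over the periods. The period of each liver is not given in the sources used here, so the fits hold no term for it. The 4 h groups share no period with C4, and there period and surgery cannot be told apart; X48 and S48 share theirs. RNA was taken from bulk liver, so that a change in the share of a cell type and a change of RNA per cell cannot be told apart.

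Of the 10 genes, 6 lie on chromosome 5 or 6 and 4 on chromosome 11 of the mm9 assembly. Cxcl1 (ENSMUSG00000029380, chr5:91320267-91322141, plus strand) and Cxcl2 (ENSMUSG00000058427, chr5:91332897-91334935, plus strand) are neighbors, and Cxcl9 (ENSMUSG00000029417, chr5:92750357-92757105) and Cxcl10 (ENSMUSG00000034855, chr5:92775664-92777915) lie close together on the minus strand. Cxcl13 (ENSMUSG00000023078, chr5:96385945-96390086) is on the plus strand. Cxcl12 (ENSMUSG00000061353, chr6:117118553-117131385) is on the plus strand of another chromosome. On chromosome 11, Ccl2 (ENSMUSG00000035385, chr11:81849073-81850955) and Ccl7 (ENSMUSG00000035373, chr11:81859214-81861027) are adjacent on the plus strand. Cxcl16 (ENSMUSG00000018920, chr11:70267485-70273486) and Ccl9 (ENSMUSG00000019122, chr11:83386421-83392138) are on the minus strand. Of the 50-base stretches of its exons, Cxcl2 shared 3.33% with another gene (Cxcl3), Ccl9 1.61% and Cxcl9 0.380%, and the other 7 members shared none, so few of their reads could be split between copies.

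RefSeq promoters (assembly GRCm38.p6, 250 bases before to 50 after the start) were matched to 7 of the 10 members and searched on both strands for 4 motifs. The 250 bases before the start are shown for Cxcl1, Cxcl2, Cxcl12 and Ccl9, the matched members called at 4 h after both surgeries, and for the interferon targets Cxcl9 and Cxcl10, each 5′ to 3′ on the strand of its gene. Capitals mark the letters that match the NF-kB consensus, AP-1 (TGANTCA) or the interferon-stimulated response element (TTTCNNTTTC).
Cxcl1, chr5:90890995-90891244, plus strand: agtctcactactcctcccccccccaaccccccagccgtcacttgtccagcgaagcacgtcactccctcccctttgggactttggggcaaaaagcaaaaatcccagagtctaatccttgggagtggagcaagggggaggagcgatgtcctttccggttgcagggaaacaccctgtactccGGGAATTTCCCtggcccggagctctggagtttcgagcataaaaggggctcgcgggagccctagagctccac
Cxcl2, chr5:90903649-90903898, plus strand: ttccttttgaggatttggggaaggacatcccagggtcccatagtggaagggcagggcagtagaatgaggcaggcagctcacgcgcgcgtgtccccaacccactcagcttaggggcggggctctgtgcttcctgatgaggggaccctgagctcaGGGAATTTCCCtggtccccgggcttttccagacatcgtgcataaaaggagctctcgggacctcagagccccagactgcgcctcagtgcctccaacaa
Cxcl9, chr5:92328080-92328329, minus strand: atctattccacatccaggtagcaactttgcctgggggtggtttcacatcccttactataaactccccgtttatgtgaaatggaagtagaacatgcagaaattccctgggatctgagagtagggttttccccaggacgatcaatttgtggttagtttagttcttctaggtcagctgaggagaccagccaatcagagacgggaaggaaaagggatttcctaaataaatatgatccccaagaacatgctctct
Cxcl10, chr5:92348890-92349139, minus strand: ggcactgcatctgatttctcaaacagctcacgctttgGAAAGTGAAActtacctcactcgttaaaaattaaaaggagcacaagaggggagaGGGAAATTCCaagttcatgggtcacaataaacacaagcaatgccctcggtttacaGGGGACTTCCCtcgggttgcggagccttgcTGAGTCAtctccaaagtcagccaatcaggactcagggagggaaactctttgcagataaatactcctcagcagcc
Cxcl12, chr6:117168285-117168534, plus strand: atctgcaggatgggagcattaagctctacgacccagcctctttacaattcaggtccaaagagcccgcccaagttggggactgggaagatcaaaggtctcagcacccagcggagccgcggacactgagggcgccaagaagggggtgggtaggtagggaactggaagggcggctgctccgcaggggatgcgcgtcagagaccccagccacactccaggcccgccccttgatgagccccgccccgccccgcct
Ccl9, chr11:83578637-83578886, minus strand: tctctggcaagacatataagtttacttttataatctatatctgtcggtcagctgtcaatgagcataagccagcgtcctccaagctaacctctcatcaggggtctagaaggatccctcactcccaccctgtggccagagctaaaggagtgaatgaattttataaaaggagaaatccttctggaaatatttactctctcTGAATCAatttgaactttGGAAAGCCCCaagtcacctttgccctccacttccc

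Cxcl1 and Cxcl2 carried the same letters, an NF-kB match read on both strands, 71 and 97 bases before the start. Of the 21 pairs of member promoters these were also the most alike, with 178 identical letters over 272 aligned bases, or 54.3% identity when gap positions are counted in the length. The NF-kB consensus occurred in 4 of the 7 member promoters (Cxcl1, Cxcl2, Cxcl10, Ccl9) and in 8.46% of all 32851 promoters. AP-1 was matched in Cxcl10, Ccl9 and, after the start and so outside the bases shown, Cxcl9 (7.81% of all promoters) and the interferon-stimulated response element in Cxcl10 (3.44%). The gamma-activated site (TTCNNNGAA, 8.3%) was found in none of the 7, and Cxcl12 and Cxcl13 held no match to any of the 4 motifs. Such matches are descriptions of the letters and not measured binding sites.

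A few livers stood apart. C0 replicates 7 and 8 had Cxcl1 at 41.4 and 55.8 RPKM, against 1.03 to 3.90 RPKM in the other 7 C0 livers. The 10 Kupffer cell markers summed to 58.0 and 285 RPKM in these livers, against 19.2 to 56.2 RPKM in the others, and the 12 neutrophil markers to 5.5 and 54.9 RPKM, against 0.449 to 2.06 RPKM. X20 replicate 6 was high for Cxcl1, Cxcl13 and the NF-kB targets, whose sum was 136 RPKM against 69.1 to 82.4 RPKM in the other X20 livers. In that liver the Kupffer cell markers summed to 79.6 RPKM (25.4 to 49.2 RPKM in the other 5), the neutrophil markers to 13.4 RPKM (1.40 to 10.3 RPKM), the monocyte markers to 506 RPKM (367 to 481 RPKM) and the hepatocyte markers to 27348 RPKM (30108 to 36253 RPKM). The monocyte sum was mostly the matrix gene Fn1, at 255 RPKM averaged over all livers, and mainly followed that gene. The next monocyte marker, Cd14, averaged 2.44 RPKM. The part of these cells in the chemokine levels of X20 replicate 6 was not tested. Comparisons with C0 are therefore also given without C0 replicates 7 and 8, a choice made after the values were seen. The 7 hepatocyte markers that define the tissue summed to 48786 to 58301 RPKM in the C0 livers. The 6 mesothelial and muscle markers summed to 6.73 RPKM in C0 replicate 7, 1.44 RPKM in replicate 8 and 0.890 to 3.48 RPKM in the other 7.

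**Figure D1:**
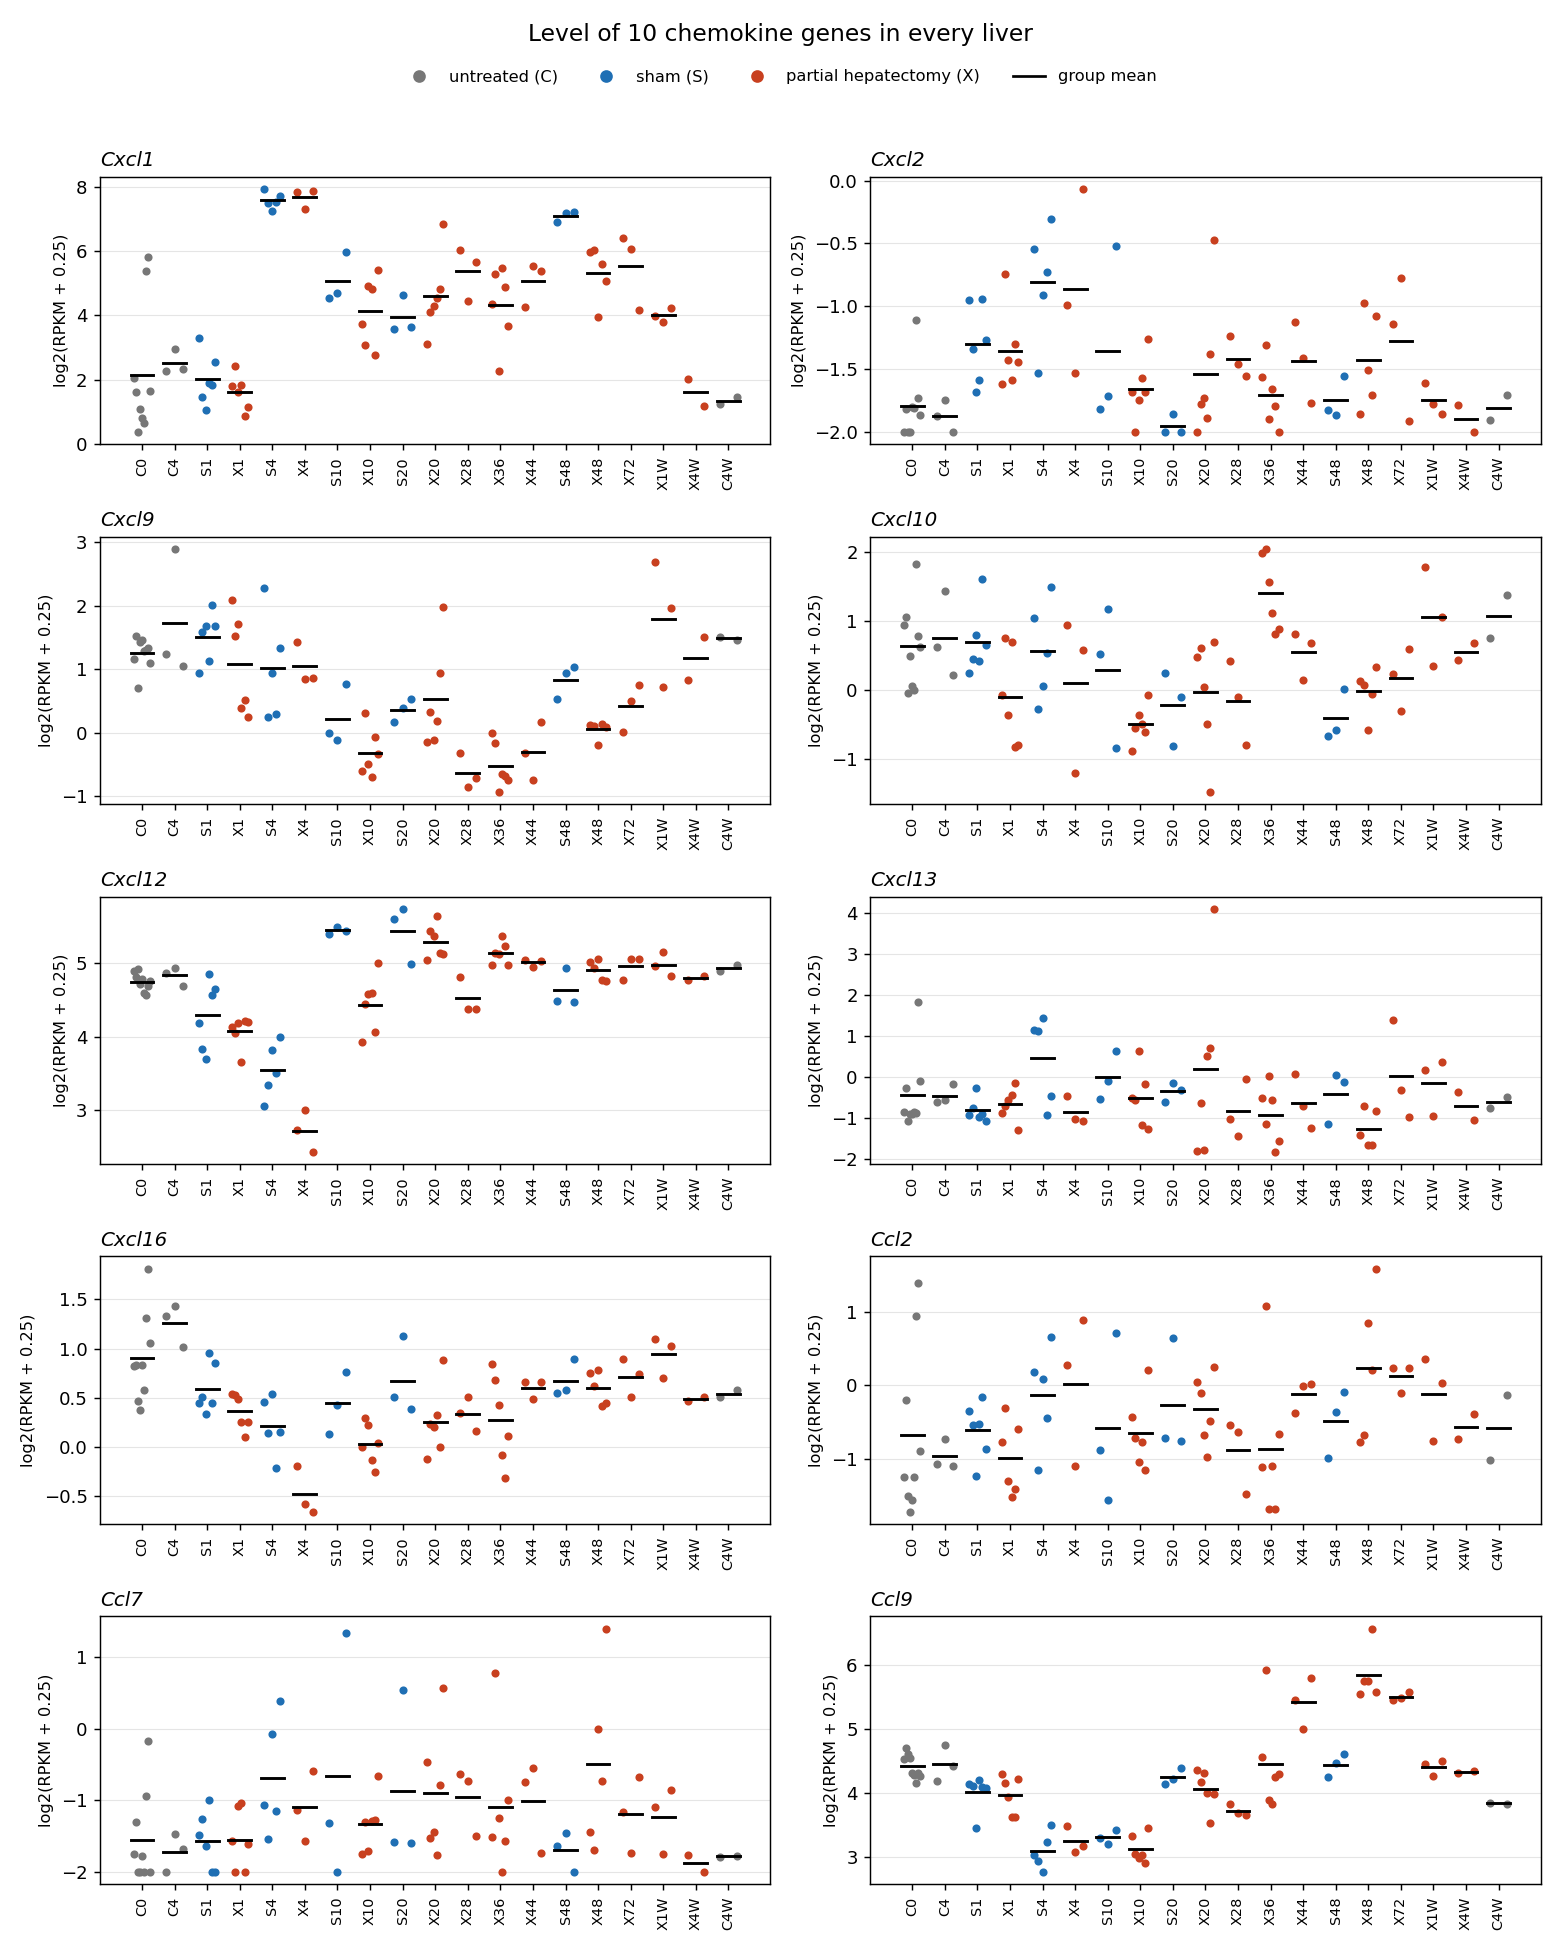
Level of the 10 chemokine genes in every analysed liver, as log2(RPKM + 0.25), with groups along the x axis (grey untreated, blue sham, red PH) and a black line at each group's mean of the log values. Cxcl1 is highest at 4 h after either surgery and in S48, Cxcl12 is lowest in X4, and Ccl9 is highest from X44 to X72.

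The comparisons were made on log2(RPKM + 0.25) with limma, with Benjamini-Hochberg adjustment over the 15396 genes, and calls required both an adjusted p below 0.05 and more than 0.5 of log2 difference. PH was set against sham at the same hour, which asks what the resection adds to the operation. Each operated group was also set against C0, which all those comparisons share, and the 4 h groups against C4 of the same ZT. C0 is from ZT2, as are the 48 and 72 h groups. The groups at 1 h (ZT3), 10 h (ZT12), 20 and 44 h (ZT22) and 36 h (ZT14) have no untreated livers of the same ZT. Their differences from C0 therefore cannot be told apart from an effect of the hour of day. X28 (ZT6) was set against C0 alone. Leaving out C0 replicates 7 and 8 changed no call of Cxcl10, Cxcl12 or Ccl9 against C0, and the changes for the other genes are given with them.

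Across the 5 hours with both surgeries, 5 of 50 member tests separated PH from sham, 1 with PH higher and 4 with PH lower. The direction depended on the livers: with replicates 4 to 6 alone in the groups that hold them, 3 were higher and 3 lower. At 1 h none of the 10 was called by limma (1 at an unadjusted p below 0.05, Cxcl10), beside 0.65% of all genes. At 4 h Cxcl12 and Cxcl16 were lower after PH (2 of 10, beside 8.64% of all genes), and at 10 h Cxcl12 was (1 of 10, beside 7.02%). At 20 h none was called (1 at an unadjusted p below 0.05, Cxcl16; 7.11% of all genes). At 48 h Ccl9 was higher and Cxcl1 lower after PH (2 of 10, beside 27.2% of all genes). The median log2 difference of the 10 members and of all genes was −0.23 and 0.01 at 1 h, −0.23 and −0.04 at 4 h, −0.52 and −0.00 at 10 h, 0.07 and 0.07 at 20 h, and 0.30 and 0.27 at 48 h.

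**Figure D2:**
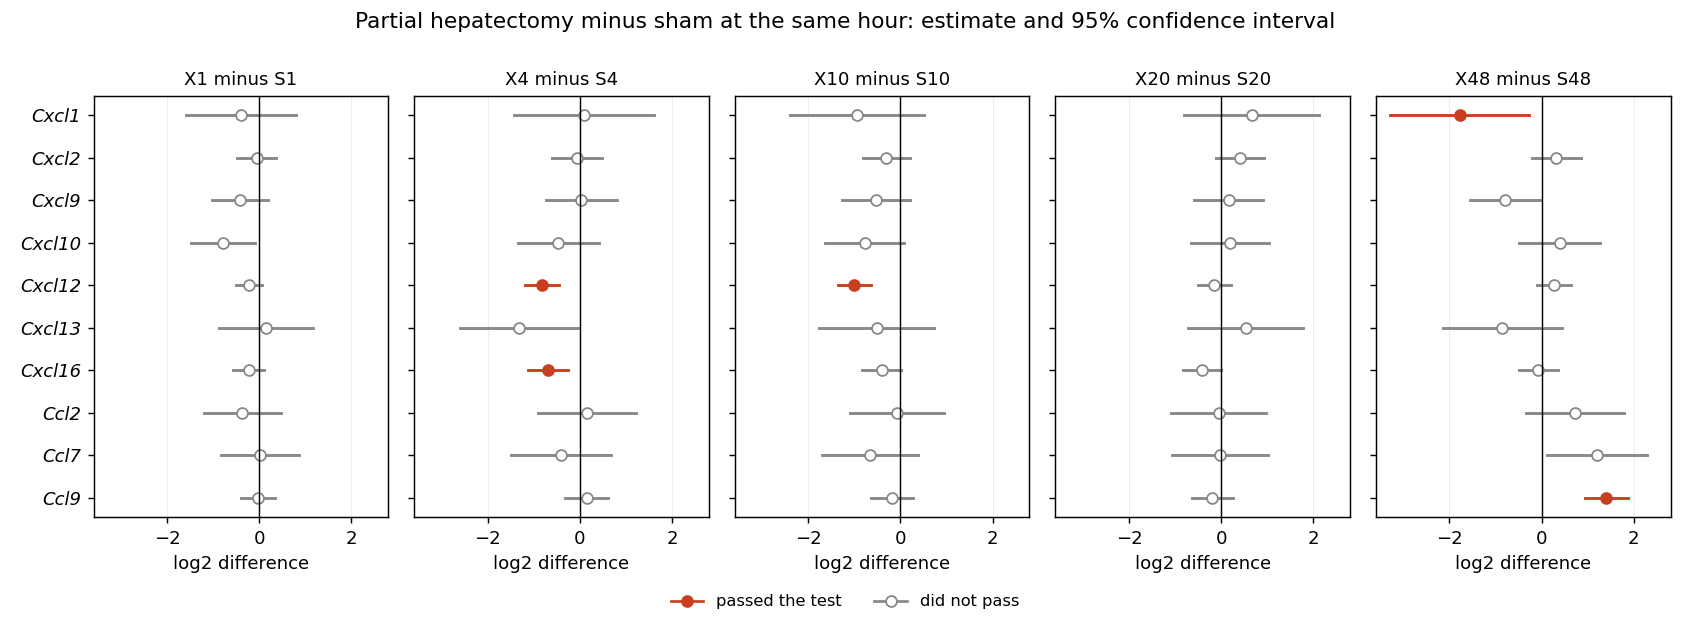
Difference between PH and sham livers at the same hour for the 10 genes, as log2(RPKM + 0.25), with 95% confidence intervals from limma; filled red points passed the test. Cxcl12 lies below 0 at 4 and 10 h, and at 48 h Ccl9 lies above 0 and Cxcl1 below it.

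Cxcl1, a neutrophil attractant that binds Cxcr2, was low at 1 h and abundant at 4 h after either operation. In untreated C0 livers it ranged from 1.03 to 55.8 RPKM with a median of 2.79 RPKM. At 1 h it ranged from 1.81 to 9.48 RPKM (median 3.38 RPKM) in S1 and from 1.56 to 5.09 RPKM (median 3.04 RPKM) in X1. Both 1 h groups lay within the C0 range.

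At 4 h the sham livers had Cxcl1 at 247, 181, 152, 187 and 211 RPKM (195 ± 35.5 RPKM, SD, n = 5). The PH livers had 231, 160 and 235 RPKM (209 ± 42.3 RPKM, SD, n = 3). These ranges overlapped almost entirely, and both lay above every C0 liver and above the C4 livers at 4.51, 7.53 and 4.79 RPKM. Against C0, Cxcl1 was 46.3-fold higher in X4 on the log2(RPKM + 0.25) scale (log2 difference 5.53, SE 0.691, limma adjusted p = 4.37e-10), and in S4 the log2 difference was 5.44 (SE 0.578, adjusted p = 1.91e-12). The same differences were 6.52 and 6.42 without C0 replicates 7 and 8. The difference between X4 and S4 was 0.09, with a 95% interval from −1.42 to 1.6, so a difference of up to 1.6 in log2 between the surgeries would not have been resolved.

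After the 4 h peak Cxcl1 was at lower levels, but no liver from 10 to 72 h was at or below the C0 median. It was 23.2, 25.5 and 62.4 RPKM in S10, and 6.57 to 42.7 RPKM (median 20.5 RPKM) in X10. In S20 it was 11.7, 24.4 and 12.2 RPKM, and in X20 it ranged from 8.30 to 115 RPKM (median 21.1 RPKM), the highest being replicate 6 and the other 5 reaching at most 27.8 RPKM. PH and sham overlapped at both hours. Later PH livers were at 65.2, 21.6 and 51.0 RPKM (X28), 4.61 to 44.5 RPKM with a median of 24.6 RPKM (X36) and 19, 45.9 and 42.0 RPKM (X44). All of these groups were higher than C0 by limma, with log2 differences between 1.80 (S20, adjusted p = 0.0468) and 3.23 (X28, adjusted p = 0.000105), although each range overlapped that of C0. They ran from 2.78 (S20) to 4.22 (X28) without C0 replicates 7 and 8. Those at 10 to 44 h, and likewise those of X48, X72 and X1W, were lost when C0 replicates 7 to 9 stood alone as the reference, and the S20 difference was lost in 10 of 12 fits that left out 1 liver.

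At 48 h the surgeries parted. S48 had Cxcl1 at 121, 147 and 148 RPKM (138 ± 15.4 RPKM, SD, n = 3), and X48 at 62.3, 65.4, 15.2, 48.7 and 33.7 RPKM (45.1 ± 20.9 RPKM, SD, n = 5). Every sham liver was above every PH liver, a log2 difference of −1.78 (SE 0.757, 95% interval −3.29 to −0.27, adjusted p = 0.0489). The call was lost when any 1 of the 3 S48 livers (adjusted p = 0.0886, 0.107 and 0.111) or X48 replicate 3 (−1.43, adjusted p = 0.137), 4 (adjusted p = 0.0550) or 5 (adjusted p = 0.0786) was left out. Within the first triplicates, replicates 1 to 3 of both groups, the log2 difference was −1.79 (adjusted p = 0.107). S48 was higher than C0 by 4.96 (SE 0.691, adjusted p = 1.69e-07), the only member called of 10 in that comparison (8.88% of all genes), and X48 by 3.18 (adjusted p = 2.54e-06). These were 5.94 and 4.16 without C0 replicates 7 and 8. Whether the PH-sham difference itself changed from 20 to 48 h did not pass the test (−2.44, adjusted p = 0.109).

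The neutrophil markers did not follow this order. Their sum ranged from 3.63 to 7.51 RPKM in S48 and from 2.36 to 8.98 RPKM in X48. Of 11 tested markers 1 was called (Elane, higher in X48), beside 27.2% of all genes. The Kupffer cell markers summed to 63.1 to 93.6 RPKM in S48 and 45.4 to 82.2 RPKM in X48, with 0 of 10 called by limma (0 at an unadjusted p below 0.05), and S48 came from a single triplicate; the part of these in the Cxcl1 difference was not tested.

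By 72 h Cxcl1 was at 84.2, 66.8 and 17.7 RPKM, and at 1 week at 15.5, 13.6 and 18.6 RPKM. At 4 weeks PH livers had 3.80 and 2.03 RPKM and their untreated controls 2.10 and 2.47 RPKM. X72 was higher than C0 by 3.39 (adjusted p = 3.24e-05) and X1W by 1.85 (adjusted p = 0.0317), the latter lost in 7 of 12 fits that left out 1 liver. In the order of group means, S48 was clear of the X72 group below it and of S4 above it, whereas 16 of the 18 neighboring pairs of groups overlapped.

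**Figure D3:**
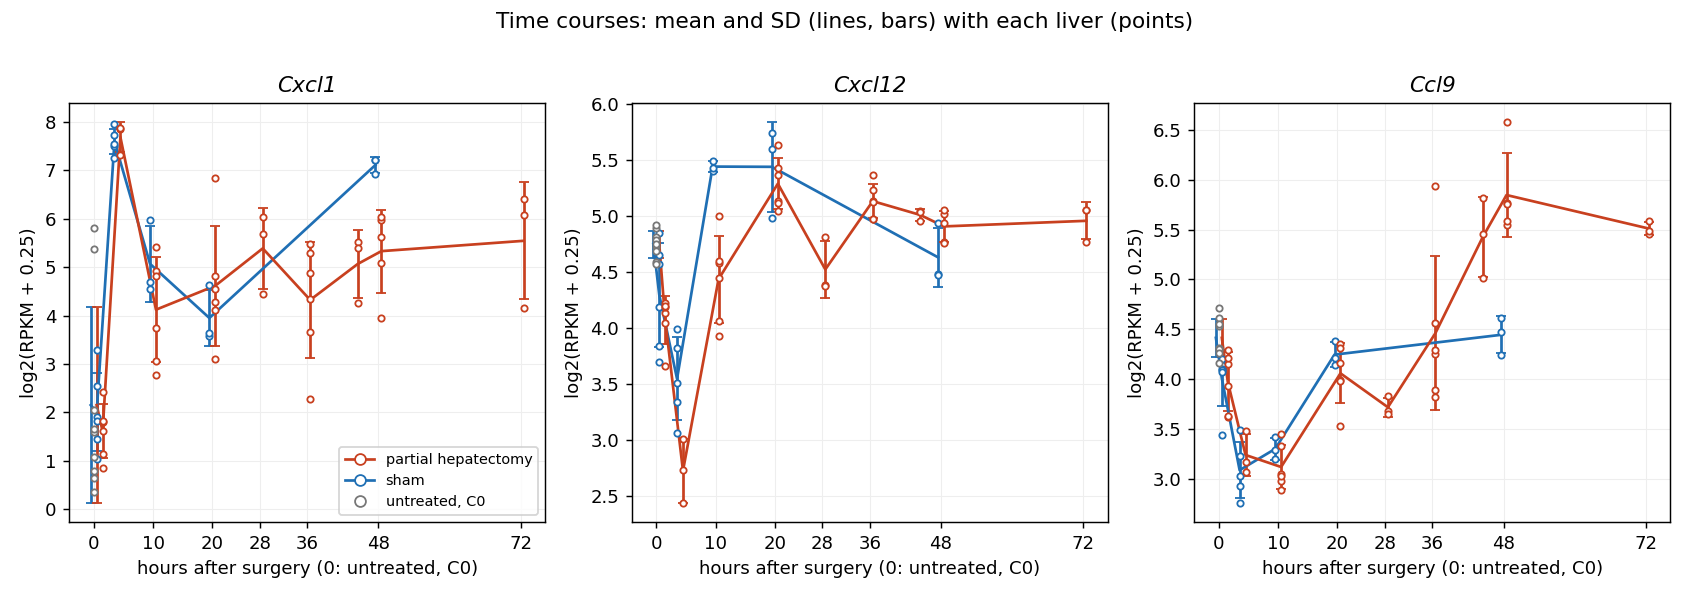
Time courses of Cxcl1, Cxcl12 and Ccl9 from 0 to 72 h after surgery, as log2(RPKM + 0.25); points are livers, lines and bars the mean and SD of the log values, blue for sham, red for PH and grey for C0. Both surgeries share the 4 h peak of Cxcl1 and the 4 h trough of Ccl9, PH lies below sham for Cxcl12 at 4 and 10 h, and Ccl9 after PH lies above sham at 48 h.

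Cxcl2, which also binds Cxcr2, moved in the same direction at 4 h at a far lower level. It was at 0.435, 0.0961, 0.282, 0.356 and 0.561 RPKM in S4 and 0.253, 0.0963 and 0.706 RPKM in X4. C0 livers ranged from 0 to 0.213 RPKM (median 0.0338 RPKM, 3 livers at 0), which overlaps both groups. Against C0 the log2 difference was 0.99 in S4 (adjusted p = 3.07e-05) and 0.93 in X4 (adjusted p = 0.000916), where the pseudocount of 0.25 RPKM is larger than most of the values, and both calls were lost with a pseudocount of 1. The X4 call was also lost without X4 replicate 6. The median C0 library held an estimated 1.99 reads of Cxcl2, so lower levels could not be resolved at this depth. At other hours no comparison of Cxcl2 was called, nor was any difference between PH and sham. Without C0 replicates 7 and 8, S1 (0.60), X1 (0.55) and X72 (0.62) were also called higher than C0.

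Their receptor Cxcr2 was scarce, at 0.0872, 0.116, 1.08, 0.313 and 0.639 RPKM in S4 and 0.120, 0.0870 and 0.218 RPKM in X4. It was lower in X4 than in S4 by limma (log2 difference −0.65, adjusted p = 0.0442), with overlapping livers, and higher in S4 than in C0 (0.98, adjusted p = 2.05e-06). The neutrophil markers summed to 7.31 to 45.1 RPKM in S4 and 4.65 to 10.0 RPKM in X4, and 0 of 11 tested were called between them by limma (3 at an unadjusted p below 0.05). Against C0 (0.449 to 54.9 RPKM, median 1.36 RPKM) 5 of the 11 were higher in S4 (S100a8, S100a9, Csf3r, Retnlg and Mmp8) and 2 in X4 (S100a8 and Mmp8), with S100a8 higher by 3.10 in S4. Of all genes, 34.4% were called in S4 and 38.2% in X4. The part of these cells in the Cxcl1 and Cxcl2 levels was not tested.

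Genes of the NF-kB response were higher than in C0 at 4 h, as was Cxcl1. Of 13 tested members of a list of 15 NF-kB targets and feedback regulators, 9 were higher in X4 than in C0 and 8 in S4, where 1 (Birc3) was lower. Of all genes, 38.2% were called in X4 and 34.4% in S4, in either direction. The list's median log2 difference was 0.70 in X4 and 0.89 in S4, and that of all genes −0.20 and −0.14. At 1 h, when Cxcl1 lay within the C0 range, 3 of the 13 were already higher in X1 (13.5% of all genes called). The list's median there was 0.36, beside −0.11 for all genes. In S1, 4 of the 13 were called against C0 in either direction (7.77% of all genes). Bcl3, a nuclear regulator of NF-kB, was at 49.9, 43.2, 39.4, 48.5 and 50.7 RPKM in S4 and 47.5, 34.9 and 57.2 RPKM in X4, above the C0 range of 3.33 to 13.8 RPKM. Between X4 and S4, 2 of the 13 were called, Birc3 and Zfp36, both higher after PH, beside 8.64% of all genes. Zfp36, which promotes decay of inflammatory mRNAs, was at 47.5, 42.6, 30.5, 53.1 and 69.4 RPKM in S4 and 72.0, 76.9 and 88.3 RPKM in X4 (log2 difference 0.74, adjusted p = 0.0223). At 48 h 2 of the 13 were called, 1 in each direction, beside 27.2% of all genes, and the list's median was −0.04 (0.27 for all genes). Icam1, the adhesion molecule that leukocytes bind on endothelium, was higher after PH (0.82, adjusted p = 0.0459). Zfp36 was lower, at 24.8, 22.3, 25.7, 21.0 and 30.9 RPKM against 39.3, 56.1 and 46.8 RPKM in S48 (−0.92, adjusted p = 0.00105).

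Cxcl12, the ligand of Cxcr4 and of the scavenger receptor Cxcr7 (Ackr3), which holds leukocytes and progenitor cells in their tissue, was the member that most often separated PH from sham. In C0 livers it ranged from 23.5 to 29.9 RPKM (median 26.6 RPKM), a narrow spread in which replicate 7 was the lowest. Against C0 it was lower at 4 h after both surgeries and higher in S10, S20 and X20.

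At 1 h Cxcl12 was at 12.3 to 18.3 RPKM (median 17.6 RPKM) in X1, below every C0 liver (log2 difference −0.68, SE 0.134, adjusted p = 4.75e-05). In S1 it was between 12.7 and 28.5 RPKM, with replicates 1 to 3 at 17.9, 14.0 and 12.7 RPKM and replicates 4 to 6 at 28.5, 23.4 and 24.8 RPKM. X1 against S1 was −0.22 (adjusted p = 0.701) over all livers, 0.22 (adjusted p = 0.525) among replicates 1 to 3 and −0.66 (adjusted p = 0.0476) among replicates 4 to 6. The sign of the 1 h difference thus turned between the triplicates.

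At 4 h S4 livers had 8.09, 9.88, 13.8, 11.1 and 15.6 RPKM of Cxcl12 (11.7 ± 3.03 RPKM, SD, n = 5) and X4 livers 6.38, 7.78 and 5.15 RPKM (6.44 ± 1.32 RPKM, SD, n = 3). All X4 livers were below all S4 livers, and all 8 were below C0 and below C4 (28.8, 30.3 and 25.5 RPKM). X4 was lower than S4 by 0.82 on the log2 scale (log2 difference −0.82, SE 0.185, adjusted p = 0.00102), and the call was kept in each of 8 fits that left out 1 liver. With S4 replicates 4 and 5 alone the difference was −1.03 (adjusted p = 0.000592). Against C0 the log2 difference was −2.02 in X4 (SE 0.169, adjusted p = 3.90e-16) and −1.20 in S4 (SE 0.141, adjusted p = 5.41e-11), so that the fall was present after sham and deeper after PH. Against C4 the values were −2.11 and −1.28.

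At 10 h (ZT12) sham livers were above every C0 liver (ZT2), with Cxcl12 at 41.9, 44.7 and 42.7 RPKM (43.1 ± 1.45 RPKM, SD, n = 3). PH livers were at 15, 21.5, 23.6, 23.9, 16.5 and 31.6 RPKM, with a median of 22.6 RPKM (22.0 ± 5.98 RPKM, SD, n = 6). No PH liver reached the lowest sham liver. The log2 difference was −1.0 (SE 0.179, adjusted p = 6.09e-05), and it was −1.12 with X10 replicates 1 to 3 and −0.89 with replicates 4 to 6. S10 was higher than C0 by 0.69 (adjusted p = 0.000519), a call lost when libraries were scaled to the same median (0.47), and X10 lay 0.31 below it, within the threshold of 0.5.

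By 20 h both groups were high and overlapped, with 48.0, 52.9 and 31.3 RPKM in S20 and 32.7 to 49.2 RPKM (median 37.9 RPKM) in X20. Against C0 Cxcl12 was higher by 0.69 in S20 (adjusted p = 0.00164) and by 0.54 in X20 (adjusted p = 0.000528; 0.31 and no longer called after scaling to the same median). The change of the PH-sham difference between 10 and 20 h was 0.85 and did not pass (adjusted p = 0.200). From 28 h on the levels were 27.8, 20.5 and 20.5 RPKM (X28), 31.0 to 40.8 RPKM (X36), 32.6, 30.6 and 32.4 RPKM (X44), and 32.0, 30.3, 32.9, 26.9 and 26.7 RPKM (X48) against 22.1, 30.2 and 21.9 RPKM in S48, and none was called against C0 or sham. X4W livers, at 27.1 and 27.9 RPKM, and C4W livers, at 29.4 and 31.1 RPKM, were near C0.

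The receptors of Cxcl12 stayed low. Cxcr4 ranged from 0.113 to 0.540 RPKM in S4 and from 0.128 to 0.214 RPKM in X4, with a log2 difference of −0.23 (adjusted p = 0.615). Cxcr7 was at 0.0868 to 0.173 RPKM in S48 and 0.193 to 0.339 RPKM in X48 without overlap (0.49, adjusted p = 0.0412), just inside the fold threshold. Stellate and endothelial cells are known sources of Cxcl12 in liver. The 8 stellate cell markers summed to 62.9 to 103 RPKM in C0, 39.2 to 60.0 RPKM in S4 and 42.9 to 55.4 RPKM in X4. Against C0, 8 of 8 were lower in S4 (34.4% of all genes called) and 7 of 8 in X4 (38.2%). Between X4 and S4, 0 of 8 stellate markers were called by limma (0 at an unadjusted p below 0.05) and 1 of 8 endothelial markers (Oit3), which was lower after PH. At 10 h the stellate sums were 35.7 to 50.3 RPKM in S10 and 49.0 to 63.8 RPKM in X10. There 1 of 8 was called (Des, higher after PH), beside 7.02% of all genes. The endothelial sums were 17.0 to 20.5 RPKM in S10 and 13.8 to 21.3 RPKM in X10, with 0 of 8 called by limma (0 at an unadjusted p below 0.05). The part of these cells in the Cxcl12 level was not tested.

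**Figure D4:**
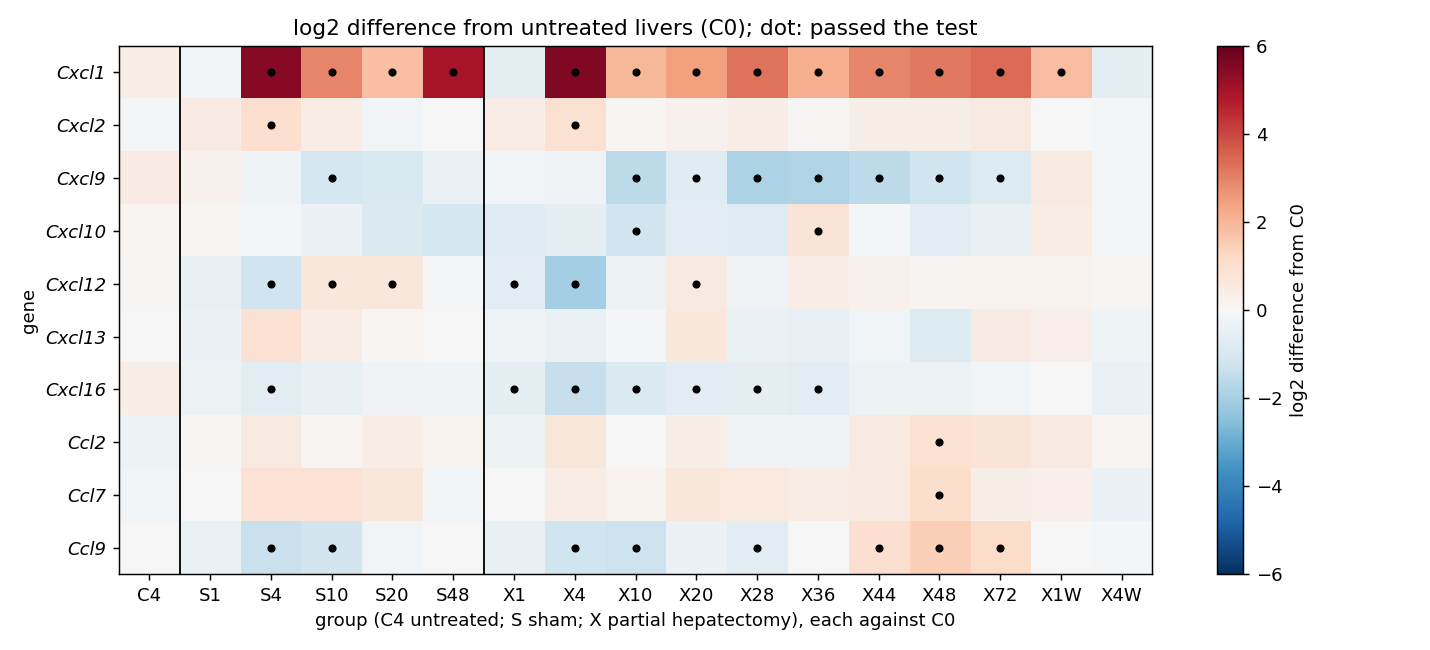
Difference from untreated C0 livers for the 10 genes in C4 and in each sham and PH group, as a heatmap of log2(RPKM + 0.25); a dot marks a difference that passed the test. Cxcl1 is higher from 4 h, Cxcl9 lower from 10 to 72 h after PH, and Cxcl12, Cxcl16 and Ccl9 lower at 4 h after either surgery.

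Against C0, 36 of 110 tests over the 11 PH groups were called, 17 higher and 19 lower, and 12 of 50 over the 5 sham groups, 7 higher and 5 lower. After scaling the libraries to the same median the PH counts were 12 higher and 25 lower and the sham counts 7 and 8. Without C0 replicates 7 and 8 they were 24 and 14 after PH and 12 and 4 after sham, and with C0 replicates 7 to 9 alone 6 and 31 and 5 and 12. The members called were 2 of 10 in X1 (13.5% of all genes), 5 in X4 (38.2%), 5 in X10 (36.4%), 4 in X20 (24.1%), 4 in X28 (24.9%), 4 in X36 (35%), 3 in X44 (39.2%), 5 in X48 (38.1%), 3 in X72 (33.2%), 1 in X1W (16.9%) and 0 in X4W (5.62%). In sham livers they were 0 in S1 (3 at an unadjusted p below 0.05; 7.77% of all genes), 5 in S4 (34.4%), 4 in S10 (29.1%), 2 in S20 (12.1%) and 1 in S48 (8.88%). With 10 genes per group, none of these counts stood far from the share of all genes. Against C4, the same 5 genes were called in S4 (43.3% of all genes) and X4 (45.6%): Cxcl1 and Cxcl2 higher and Cxcl12, Cxcl16 and Ccl9 lower. No member was called by limma between C4 and C0 (0 at an unadjusted p below 0.05; 7.89% of all genes) or between X4W and C4W (0 at an unadjusted p below 0.05; 0.065%).

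Cxcl9, an interferon-inducible ligand of Cxcr3 that attracts T cells, was lower than in the untreated C0 livers for most of the course after PH. C0 livers ranged from 1.38 to 2.64 RPKM (median 2.23 RPKM). In X10 it was 0.363 to 0.995 RPKM (median 0.50 RPKM), in X28 0.548, 0.304 and 0.358 RPKM, and in X36 0.272 to 0.749 RPKM (median 0.378 RPKM). X44 had 0.552, 0.345 and 0.870 RPKM. None of these 4 groups overlapped C0, with log2 differences of −1.57 (X10, adjusted p = 1.6e-06), −1.89 (X28, adjusted p = 1.20e-05), −1.79 (X36, adjusted p = 9.34e-08) and −1.56 (X44, adjusted p = 0.000127).

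At 48 h Cxcl9 was at 0.838, 0.829, 0.618, 0.843 and 0.811 RPKM in X48 and at 1.20, 1.66 and 1.81 RPKM in S48. The PH livers were all below the sham livers, but the difference of −0.79 did not pass (adjusted p = 0.0904); it passed after scaling to the same median (−1.17, adjusted p = 0.0143) and when the 2 groups were fitted alone. X48 was lower than C0 (−1.21, adjusted p = 0.000311). X72, at 0.754, 1.16 and 1.43 RPKM, was lower by 0.84 (log2 difference −0.84, adjusted p = 0.0412), a call that depended on single livers and on C0 replicates 7 and 8 (−0.82, adjusted p = 0.0598 without both). In X20 it was 0.655 to 3.67 RPKM, the highest being replicate 6 (−0.73, adjusted p = 0.0250; lost without X20 replicate 1, 2, 3 or 4).

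In sham livers Cxcl9 was at 0.747, 0.674 and 1.45 RPKM in S10 and 0.869, 1.06 and 1.19 RPKM in S20. S10 was lower than C0 by limma (−1.04, adjusted p = 0.0119), overlapping it, and S20 was below every C0 liver without passing (−0.89, adjusted p = 0.0532). At 1 h X1 replicates 1 to 3 were at 2.61 to 4.01 RPKM, and replicates 4 to 6 at 0.930 to 1.17 RPKM, below every C0 liver. In S1 replicates 1 to 3 were at 1.67 to 2.93 RPKM and replicates 4 to 6 at 1.92 to 3.76 RPKM. No PH-sham difference in Cxcl9 was called at any hour over all livers, so a lower level after PH than after sham was not shown. At 1 week the livers were at 6.16, 1.40 and 3.65 RPKM and at 4 weeks at 1.52 and 2.59 RPKM.

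Cxcl10, which also binds Cxcr3, followed another course. In C0 it ranged from 0.724 to 3.31 RPKM (median 1.29 RPKM) and in X10 from 0.294 to 0.703 RPKM (median 0.448 RPKM), below every C0 liver (log2 difference −1.13, adjusted p = 0.00158). In X36, where Cxcl9 was low, Cxcl10 ranged from 1.51 to 3.89 RPKM (median 2.32 RPKM), the group with the highest mean. It overlapped C0 there, and the difference of 0.77 (adjusted p = 0.0326) was lost in 6 of 15 fits that left out 1 liver and after scaling to the same median (0.43, adjusted p = 0.234). At 48 h X48 was at 0.848, 0.808, 0.419, 0.712 and 1.01 RPKM and S48 at 0.382, 0.422 and 0.761 RPKM, with overlap.

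Of 14 tested of a list of 15 other genes of the interferon response, 7 were lower and 1 (Socs1) higher in X4 than in C0, beside 38.2% of all genes called, and 4 lower and 1 (Socs1) higher in S4, beside 34.4%. Against C0, 7 were lower in X1 (13.5% of all genes called) and 9 in X10 (36.4%). In X1 Cxcl9 was not called and parted by triplicate, as given above. In X20, where Cxcl9 was called lower, 2 were lower (24.1%). Later, 5 were lower in X28 (24.9%), 6 in X36 (35%), 6 in X44 (39.2%) and 5 in X48 (38.1%). In either direction 5 were called in X72 (33.2%) and 6 in X1W (16.9%). The listed genes summed to 36.2 to 39.4 RPKM in X72 and 68.1 to 87.6 RPKM in X1W, against 44.2 to 71.3 RPKM in C0. Their sum was thus not low at 1 week. Between X10 and S10, 3 of the 14 were lower after PH, Ifit3 (−1.56), Ifit1 (−1.28) and Isg15 (−0.88), beside 7.02% of all genes, and Cxcl10 showed −0.78 there without passing (adjusted p = 0.253). The receptor Cxcr3 was at most 0.285 RPKM in any liver and was not tested.

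Markers of T and NK cells were lower than in C0 from 4 h to 1 week, both where Cxcl9 was called and where it was not. Of 4 tested, 3 were lower in each of X4, X10, X20, X28, X36, X44 and X48, and 4 in X72 and in X1W. Of all genes, 16.9% (X1W) to 39.2% (X44) were called in these groups. In sham livers 2 were lower in S4, S10 and S20 and 3 in S48, beside 8.88% (S48) to 34.4% (S4) of all genes called. Cxcl9 itself was not called in X4, X1W, S4, S20 or S48. Over the 8 listed markers the sum was 1.15 to 2.99 RPKM in C0, 0.263 to 0.466 RPKM in X10, 0.253 to 0.569 RPKM in X28 and 0.176 to 0.587 RPKM in X36, without overlap. Between PH and sham, 0 of 4 were called at 4, 10 and 48 h by limma (0, 0 and 2 at an unadjusted p below 0.05). The part of these cells in the Cxcl9 level was not tested.

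Cxcl16, a membrane-bound ligand of Cxcr6 that also acts as a scavenger receptor, was lowest at 4 h after PH. X4 had 0.623, 0.420 and 0.384 RPKM, S4 had 1.13, 0.856, 1.20, 0.614 and 0.861 RPKM, and C0 ranged from 1.05 to 3.26 RPKM (median 1.53 RPKM). X4 lay below every C0 liver and overlapped S4 by 1 liver. Against S4 the log2 difference was −0.69 (SE 0.215, adjusted p = 0.0190), and the call was lost without S4 replicate 3 (adjusted p = 0.0678), X4 replicate 5 (adjusted p = 0.0899) or X4 replicate 6 (adjusted p = 0.120), and with S4 replicates 4 and 5 alone (−0.45, adjusted p = 0.324).

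Against C0, Cxcl16 was lower in X4 by 1.38 (log2 difference −1.38, adjusted p = 1.58e-08) and in X10 (−0.87, adjusted p = 1.82e-06), where it ranged from 0.590 to 0.977 RPKM. Both were kept without C0 replicates 7 and 8 (−1.19 and −0.68). Further calls in X1 (−0.54), X20 (−0.64), X28 (−0.56), X36 (−0.62) and S4 (−0.68) were lost without those 2 livers (−0.35, −0.46, −0.37, −0.43 and −0.49). Against C4 (2.27, 2.45 and 1.77 RPKM) both 4 h groups were lower, by 1.74 in X4 (log2 difference −1.74) and 1.04 in S4 (−1.04). The Kupffer cell markers, from a cell known to make Cxcl16, summed to 23.6 to 28.6 RPKM in X4 and 21.6 to 58.0 RPKM in S4. Against C0, 4 of 10 were lower in X4 (Clec4f, Vsig4, C1qc and Emr1), beside 38.2% of all genes called. In S4 0 of 10 were called by limma (0 at an unadjusted p below 0.05), beside 34.4%, with C0 replicate 8 alone at 285 RPKM. Against C4 (60.7 to 78.6 RPKM) 6 of 10 were lower in X4 (list median −1.34) and 5 of 10 in S4 (−0.95), beside medians of −0.26 and −0.22 for all genes. Of all genes, 45.6% and 43.3% were called there. The part of these cells in the Cxcl16 level was not tested.

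Cxcl13, the B-cell attractant that binds Cxcr5, varied more between livers than between groups. C0 ranged from 0.222 to 3.30 RPKM (median 0.30 RPKM), the highest being replicate 8. X20 ranged from 0.0361 to 16.9 RPKM (median 0.780 RPKM), the highest being replicate 6. Its replicates 1 to 3 were at 0.0361 to 0.397 RPKM and its replicates 4 to 6 at 1.16 to 16.9 RPKM, beside 0.407 to 0.658 RPKM in S20. S4 had 1.96, 1.92, 2.45, 0.277 and 0.468 RPKM, with replicates 1 to 3 above replicates 4 and 5, and X4 had 0.478, 0.240 and 0.226 RPKM. The X4-S4 difference was −1.31 over all livers (adjusted p = 0.181), −2.09 with S4 replicates 1 to 3 (adjusted p = 0.00311) and −0.15 with S4 replicates 4 and 5 (adjusted p = 0.969). No comparison of Cxcl13 was called over all livers. Without C0 replicates 7 and 8, S4 was higher than C0 by 1.17 (adjusted p = 0.0378).

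Ccl2 and Ccl7, monocyte attractants that bind Ccr2, were low and scattered. Ccl2 ranged from 0.0528 to 2.38 RPKM in C0 (median 0.172 RPKM), the 2 highest being replicates 7 and 8 at 1.68 and 2.38 RPKM. At 4 h it was 0.878, 0.199, 0.810, 0.486 and 1.32 RPKM in S4 and 0.957, 0.217 and 1.6 RPKM in X4. At 48 h it was 0.255, 0.524 and 0.690 RPKM in S48 and 0.336, 0.374, 1.55, 0.906 and 2.75 RPKM in X48. The surgeries overlapped at both hours (0.16, adjusted p = 0.927, and 0.72, adjusted p = 0.284).

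Against C0, Ccl2 was called in X48 alone (0.91, adjusted p = 0.0478), and that call was lost in 9 of 14 fits that left out 1 liver. Without C0 replicates 7 and 8, Ccl2 was higher than C0 in S4 (1.06, adjusted p = 0.0127), X4 (1.22, adjusted p = 0.0158), X20 (0.87, adjusted p = 0.0370), X44 (1.08, adjusted p = 0.0332), X48 (1.43, adjusted p = 0.000720) and X72 (1.32, adjusted p = 0.00992). Which livers stood for the resting state therefore decided most of the Ccl2 calls.

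Ccl7 was at 0 in 4 of 9 C0 livers and reached 0.640 RPKM there (median 0.0419 RPKM). In X48 it was 0.119, 0.0590, 0.748, 0.354 and 2.38 RPKM and in S48 0.0725, 0.115 and 0 RPKM, overlapping through X48 replicate 2. The difference of 1.20 did not pass (adjusted p = 0.0626), but it did without X48 replicate 1 (1.44, adjusted p = 0.0317) or 2 (1.5, adjusted p = 0.0227). Against C0, X48 was higher by 1.05 (adjusted p = 0.0229), a call lost without X48 replicate 3 or 5. Without C0 replicates 7 and 8, S4 (1.14), S10 (1.17) and X20 (0.93) were called higher as well. Replicates 3 and 5, the 2 X48 livers highest for Ccl7, were also the 2 highest for Ccl2. The median C0 library held an estimated 0.997 reads of Ccl7, at the limit of what this depth can count.

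The receptor Ccr2 was at 0.0659, 0.108 and 0.123 RPKM in S48 and 0.101, 0.196, 0.615, 0.173 and 0.518 RPKM in X48, and it was higher after PH (0.62, adjusted p = 0.0373). X48 replicates 3 and 5 were again the 2 highest. Of the 10 monocyte markers, 4 were higher in X48 than in S48 (27.2% of all genes called), Chi3l3 (1.49), Ly6c1 (0.85), F13a1 (0.83) and Plac8 (0.69). The 10 markers, mostly the matrix gene Fn1, summed to 223 to 264 RPKM in S48 and 226 to 369 RPKM in X48. The part of these cells in the Ccl2 and Ccl7 levels was not tested.

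Ccl9, a monocyte and dendritic cell attractant of the mouse that binds Ccr1, had 2 phases: a fall shared by both surgeries and a later rise after PH. C0 livers ranged from 17.6 to 25.9 RPKM (median 19.6 RPKM), with replicate 7 the lowest. At 4 h it was 7.93, 7.36, 6.51, 9.16 and 11 RPKM in S4 (8.39 ± 1.74 RPKM, SD, n = 5) and 10.9, 8.17 and 8.74 RPKM in X4. These overlapped each other and lay below every C0 and C4 liver (18.0, 26.8 and 21.3 RPKM in C4). The log2 difference from C0 was −1.33 in S4 (SE 0.179, adjusted p = 2.95e-09) and −1.17 in X4 (SE 0.214, adjusted p = 3.79e-06), and X4 minus S4 was 0.15, with a 95% interval from −0.32 to 0.62.

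At 10 h Ccl9 was still low, at 9.50, 8.92 and 10.5 RPKM in S10 and 7.18 to 10.6 RPKM (median 7.95 RPKM) in X10, both below every C0 liver (−1.11, adjusted p = 1.62e-05, and −1.29, adjusted p = 8.31e-10). At 20 h it was at 17.3, 18.3 and 20.6 RPKM in S20, overlapping C0, and at 11.3 to 20.2 RPKM (median 16.7 RPKM) in X20. There replicates 1 to 3 were at 17.7 to 20.2 RPKM and replicates 4 to 6 at 11.3 to 15.7 RPKM. The latter were below every C0 and S20 liver. X28 was lower again than C0, at 13.9, 12.6 and 12.3 RPKM (−0.70, adjusted p = 0.00652). X36 ranged from 13.9 to 61.0 RPKM (median 19.1 RPKM), where replicate 2 stood alone at the top.

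The rise followed at 44 h, with Ccl9 at 43.6, 32.0 and 55.9 RPKM. X48 had 46.4, 54.0, 53.8, 95.3 and 47.8 RPKM (59.5 ± 20.3 RPKM, SD, n = 5) and S48 had 18.7, 21.9 and 24.2 RPKM (21.6 ± 2.76 RPKM, SD, n = 3). X72 had 43.7, 44.5 and 47.8 RPKM. Every liver of these 3 PH groups was above every C0 and S48 liver, whereas S48 lay within the C0 range.

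Ccl9 was 2.64-fold higher in X48 than in S48 on the log2(RPKM + 0.25) scale (log2 difference 1.40, SE 0.234, 95% interval 0.93 to 1.87, adjusted p = 1.36e-06). It was 1.24 with X48 replicates 1 to 3, 1.64 with replicates 4 and 5, and 0.91 (adjusted p = 0.000588) after scaling to the same median. The change of the PH-sham difference from 20 to 48 h was itself called (1.59, SE 0.326, adjusted p = 0.000206), 1 of 10 members beside 13.2% of all genes. No member was called by limma for the change from 1 to 4 h (1 at an unadjusted p below 0.05; 4.68% of all genes), from 4 to 10 h (0; 3.73%) or from 10 to 20 h (1; 0.104%). Against C0 the log2 difference was 1.01 in X44 (adjusted p = 4.55e-05), 1.43 in X48 (adjusted p = 2.44e-10) and 1.10 in X72 (adjusted p = 1.63e-05), and after scaling X44 came to 0.49, just inside the threshold. By 1 week Ccl9 was at 21.6, 18.9 and 22.5 RPKM, within the C0 range. At 4 weeks it was at 19.7 and 20.1 RPKM in X4W and 14.0 in both C4W livers, without overlap and without passing (0.50, adjusted p = 1).

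The receptor Ccr1 was at 0.0103, 0.0486 and 0.0146 RPKM in S48 and 0.0338, 0.0668, 0.516, 0.0820 and 0.592 RPKM in X48 (0.73, adjusted p = 0.0222), at levels of a few reads and with overlap. The Kupffer cell markers, from a cell that is a known source of Ccl9, overlapped between the groups as given above for Cxcl1, and their sum was 48.6 to 68.7 RPKM in X44 and 53.4 to 108 RPKM in X72. Stellate markers were higher after PH at 48 h in 4 of 8 cases (Col1a1, Col3a1, Des and Pdgfrb), beside 27.2% of all genes called. Their sums were 66.1 to 116 RPKM in X48 and 57.7 to 61.8 RPKM in S48. X48 replicate 4, highest for Ccl9, had the lowest Kupffer sum of the 5 X48 livers, and the part of these cells in the rise was not tested.

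Of 31 other chemokine ligands, 23 could be tested, and 4 of them were higher in X48 than in S48, none lower, a smaller share than the 27.2% of all genes called there. Ccl6, a close relative of Ccl9, was at 1.52, 1.48 and 1.59 RPKM in S48 and 3.75, 2.11, 13.4, 2.02 and 7.37 RPKM in X48, with no overlap (1.39, adjusted p = 0.0113). Cxcl14, made mainly by epithelial and stromal cells, was at 1.24, 0.880 and 1.43 RPKM in S48 and 6.23, 2.67, 1.29, 3.48 and 4.00 RPKM in X48, overlapping through X48 replicate 3 (1.27, adjusted p = 0.0047). The others were Pf4 (1.19), a platelet chemokine, and Ccl19 (0.61), whose reads are uncertain because 96.4% of its 50-base stretches occur in copies of the gene. At 20 h 3 ligands were lower after PH than after sham (Ccl27a −0.78, Cxcl17 −0.78 and Ccl27b −0.55; 7.11% of all genes), and at 1, 4 and 10 h none of the 23 was called by limma (0, 1 and 4 at an unadjusted p below 0.05). Of 23 receptors, 12 could be tested. After PH 1 was lower at 4 h (Cxcr2, beside 8.64% of all genes called). At 48 h 2 were higher (Ccr1 and Ccr2, beside 27.2%). Cxcr5 and Cxcr3 were below the threshold in every liver.

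The genes whose group means followed each member most closely over the 19 groups were taken by Pearson correlation of the mean log values, as a description in which all members share libraries and a few groups carry most of the range. For Cxcl1 they were Socs3 (r = 0.934), the feedback inhibitor of cytokine signalling, and Tifa (r = 0.932), an adaptor of NF-kB signalling. For Cxcl2 they were Zc3h12a (r = 0.905), an RNase that cuts inflammatory mRNAs, and Rbm18 (r = 0.896). For Cxcl12 they were AI464131 (r = 0.965) and Rtn4rl1 (r = 0.959), and for Ccl9 Commd10 (r = 0.940) and Txndc16 (r = 0.937). Cxcl9 was closest to Bphl (r = 0.918) and Cd74 (r = 0.912), the invariant chain of MHC class II, and Cxcl16 to Vamp5 (r = 0.916) and Pth1r (r = 0.912). Ccl2 was closest to Pdgfc (r = 0.902) and Krit1 (r = 0.856), and Ccl7 to Chi3l3 (r = 0.890), a product of alternatively activated macrophages, and Timp1 (r = 0.859). The closest matches of Cxcl10 (2610044O15Rik, r = 0.717) and Cxcl13 (Sirpb1b, r = 0.665) were weaker.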

How the data were processed

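Poly(A)-selected RNA of single livers was sequenced as stranded single-end reads of 100 nucleotides. The deposited values are log2 RPKM per gene: per the study's methods and the submitters' processing notes, the authors trimmed reads with Cutadapt and prinseq-lite, mapped them to mm9 with TopHat2 2.0.13 and Bowtie2 (SAMtools 0.1.19), counted them on the transcribed strand of Ensembl 67 genes with featureCounts, a read with several positions split among them, and listed genes without reads at the lowest value (−14.29, 52.9% of values). RPKM divides by library totals, so that a few abundant transcripts shift all others. Of 84 columns, 80 matched 1 labelled sample each, and 4, named as sham livers at 4 h with numbers 6 to 9, matched none and were not used, so S4 and X4 rest on the livers whose columns match the labels. Of 87 labelled samples, 7 had no column (3 X4 livers, 3 at 60 h after PH and 1 X4W liver) and were not analysed here.

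Depth, estimated from the RPKM worth of 1 read over the exon lengths of 37205 genes, was 12.2 to 48.9 M reads, with a median of 26.8 M. At a tolerance of 0.05 reads, a median of 76.4% of values up to 10 reads came out whole (37.2% in X28 replicate 2), too few for a count test. At 0.25 RPKM the members would hold an estimated 5.36 (Ccl7) to 54.7 (Cxcl12) reads in a library of that median depth.

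Genes above −1.5 in at least 1 library (15396) were tested with limma 3.58.1 (R 4.3.3) after adding 0.25 to each RPKM and taking log2, by a single model with a coefficient for each of 19 groups, a prior variance that follows the mean, and Benjamini-Hochberg adjustment over all kept genes in each comparison; calls needed an adjusted p below 0.05 and a log2 difference beyond 0.5. The scripts were tested on simulated data. The 10 members and the lists of ligands, receptors, NF-kB and interferon targets and cell markers were chosen with earlier results of these data known. Besides the members, the receptors they bind were named, of other ligands the 4 with the highest mean and the 2 largest called rises and falls per PH-sham comparison, of each list the 2 with the highest mean and, at 1, 4 and 10 h, the largest called difference, and the 2 genes most alike each member. Other listed genes, where a count of 5 or fewer is spelled out, were named after their values were seen. Leaving out C0 replicates 7 and 8, or these with X20 replicate 6, and all alternatives for the lists were added after seeing the data. Promoters are from RefSeq (GRCm38.p6), gene positions from GENCODE on mm9. Python 3.11.15, numpy 2.4.6, pandas 2.3.3 and matplotlib 3.10.9 were used.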

Additional observations from a re-analysis of the deposited data

Results flagged for a closer look

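In groups of 4 to 10 livers, a liver was singled out when its gap to the nearest other liver was large for the range of the group (Dixon's test at 95%). Chance alone singles out about 1 in 20 groups, and 10 of 80 tests over the members did. Ccl9 was high in X36 replicate 2 (61.0 RPKM), a liver that was also high for Ccl2 (1.86 RPKM) and Ccl7 (1.47 RPKM) and had the highest stellate marker sum of the X36 livers (127 RPKM). Ccl9 was also high in X48 replicate 4 (95.3 RPKM) and low in S1 replicate 3 (10.6 RPKM). Cxcl2 was high in C0 replicate 7 (0.213 RPKM) and X1 replicate 2 (0.348 RPKM), Cxcl13 was high in C0 replicate 8 (3.30 RPKM), Cxcl9 was low in X48 replicate 3 (0.618 RPKM) and Cxcl12 was low in X1 replicate 4 (12.3 RPKM).

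The PH-sham difference of Ccl9 changed between 20 and 48 h by 1.59 on the log2 scale in a limma test of the change itself (adjusted p = 0.000206). All 5 X48 livers lay above all 3 S48 livers, and the X20 and S20 livers overlapped.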

How the results depend on the processing

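The count of calls between PH and sham (5) came to 4 to 6 when 1 liver was left out, that against C0 after PH (36) to 33 to 38, that of sham against C0 (12) to 11 to 16, that of the 4 h groups against C4 (10) to 9 to 11, and that of X4W against C4W (0) to 0. The count of C4 against C0 (0) came to 0 to 1 when 1 liver was left out, 2 with a replicate block, 1 with C0 replicates 1 to 3 alone, 2 with C0 replicates 4 to 6 alone, 1 without C0 replicates 7 and 8, and 2 without these and X20 replicate 6. The count over neighboring hours (1) came to 2 with the replicate block. Calls over the listed genes (206 of 1590 tests, 88 higher and 118 lower) came to 112 with a pseudocount of 1 and to 316 with C0 replicates 7 to 9 alone. With C0 replicates 7 to 9 alone 5 values reversed: Cxcl1 in X10 (−0.16), X1W (−0.28) and S20 (−0.33), and Ccl2 in X10 (−1.13) and X48 (−0.24); C0 replicates 7 and 8 are 2 of those 3 libraries. The split of PH calls against C0 (17 higher, 19 lower) was 12 and 25 after scaling, 22 and 12 with C0 replicates 4 to 6 alone and 6 and 31 with C0 replicates 7 to 9 alone; that of sham calls (7 and 5) was 7 and 8, 8 and 4, and 5 and 12. Without C0 replicates 7 and 8, calls numbered 38 after PH (24 and 14) and 16 after sham (12 and 4). The split of calls between PH and sham (1 higher, 4 lower) was 1 and 5 after scaling. It was 1 and 4 with operated livers 1 to 3 alone and 3 and 3 with operated livers 4 to 6 alone. The split over the listed genes was 74 and 159 after scaling. Over single genes and all fits that left out 1 liver, 73 calls were lost, 62 gained and 0 reversed. Depth limits Cxcl2 and Ccl7, at few reads per library.

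Same-numbered livers did not deviate together: over 17 pairs of a PH and a sham liver of the same hour and number the correlation was −0.186 to 0.273 (median 0.0156). It was above 0.1 in 3, so the numbers do not pair the livers. With the replicate block the counts were 5 (PH against sham), 38 (PH against C0), 16 (sham against C0), 10 (against C4), 0 (X4W against C4W) and 208 (lists).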
